A study of Mus musculus with 6 samples.

Results

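Ubiquitin-specific proteases (USPs) form the largest family of deubiquitinases, the enzymes that take ubiquitin off proteins, and their genes carry the symbol Usp and a number in the mouse. Transcripts of these genes were measured in bead-purified splenic B cells of TLR9-deficient (TLR9-/-) MRL/lpr mice, a strain with a Fas mutation that develops a lupus-like disease. Cells were cultured for 4 h with CL097, an imidazoquinoline agonist of TLR7, at 5 µg/ml, or without a stimulus. There were 3 CL097 and 3 unstimulated RNA-seq libraries, numbered 1 to 3 in each condition, from 3 mice aged 5 to 7 weeks that the study's methods describe as male. All libraries carried the same Tlr9 deletion and a wild-type Tlr7. No TLR9-sufficient cells and no second time or dose were analysed here, and the comparison asks which USP transcripts change when B cells engage TLR7 in the absence of TLR9.

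Members were all genes listed with the symbol Usp followed by a digit, except Usp18, whose product removes the ubiquitin-like protein ISG15. Of 23420 genes that the deposited tables list, 55 met this rule, and 42 of the 55 had a log2 CPM (read counts scaled to a common library total) of -1 or more in at least 3 of 6 libraries and were tested. Of the other 13, 10 had 1 constant low value (log2 CPM of -5.05) in all libraries, as 5485 genes of the tables did: Usp13, Usp26, Usp29, Usp43, Usp9y and the 5 Usp17l genes. Usp44 reached 1.21 CPM, Usp50 0.234 CPM and Usp51 0.181 CPM in their highest library. The rule also takes in Usp6nl, which encodes a GTPase-activating protein for Rab proteins and is named for its likeness to a human USP gene.

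USPs are cysteine proteases that cut the bond between ubiquitin and a lysine of the target protein, and most also trim ubiquitin chains. A chain can send a protein to the proteasome, or it can serve as a scaffold for signalling, as it does downstream of Toll-like receptors, where TRAF6 and other ligases build chains that activate the IKK complex. Single USPs act at defined places: on the proteasome, on histones, at stalled replication forks, on endosomes, in the nucleolus or on mitochondria.

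USP transcripts rose more often than they fell after CL097. Of 42 tested members 12 were called higher (28.6%) and 4 lower (9.52%), and 26 were not called. Among all 11844 genes tested, 25.9% were called higher, 25.8% lower and 51.7% in either direction, so the share of members called higher was close to that of all genes and the share called lower was below it. A gene was called where the limma fit with the replicate number as a block gave an adjusted p under 0.05 (Benjamini-Hochberg over all tested genes) and its log2 fold change was above 0.5 or below -0.5. The median log2 fold change of the members was 0.18, against 0.002 for all genes tested. Changes were measured with a median standard error (SE) of 0.076 for the members and 0.116 for all genes. The read depth behind these values is unknown, since the tables hold log2 CPM and no counts.

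**Figure D1:**
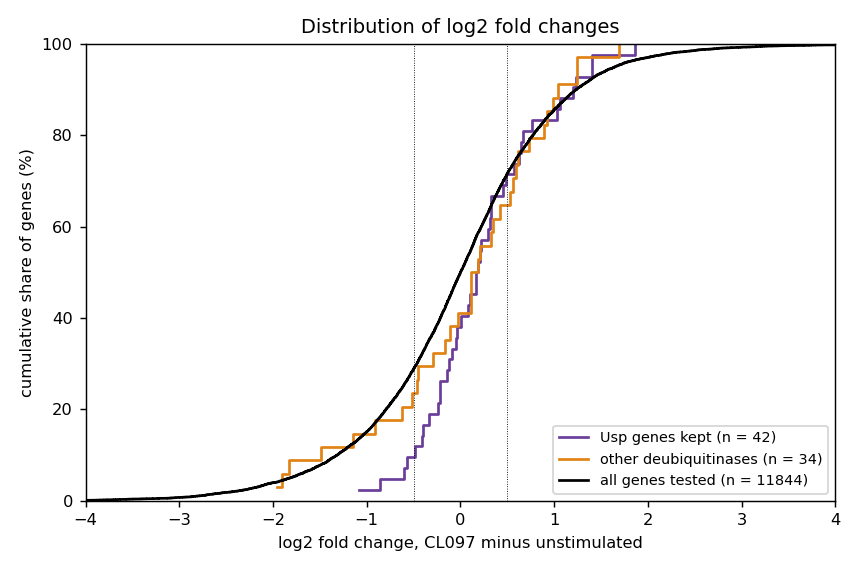
Cumulative share of genes (vertical axis, %) by log2 fold change, CL097 minus unstimulated (horizontal axis), for the 42 tested Usp genes, 34 other deubiquitinases and all 11844 genes tested; dotted lines mark the fold threshold of 0.5. The curve of the Usp genes lies near that of all genes above 0.5 and starts to rise only near -1.08, where the lowest member stands.

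Small shifts were common. With the fold threshold left out, 20 members were higher and 9 lower at an adjusted p under 0.05, against 33.6% and 33.0% of all genes. The 3 CL097 libraries lay above all 3 unstimulated libraries for 21 members and below them for 9, against 33.4% and 32.4% of all genes. Within numbers, 24 members were higher in CL097 in all 3 pairs and 12 were lower in all 3. This count was not made for all genes, so it is not read as a trait of the family. The summed level of the 42 members was 5390, 5554 and 5700 CPM in CL097 libraries 1 to 3, against 4482, 4612 and 4697 CPM in unstimulated libraries. These are shares of a library scaled to a common distribution, so a change in the cells that make up a library and a change in RNA per cell cannot be told apart.

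**Figure D2:**
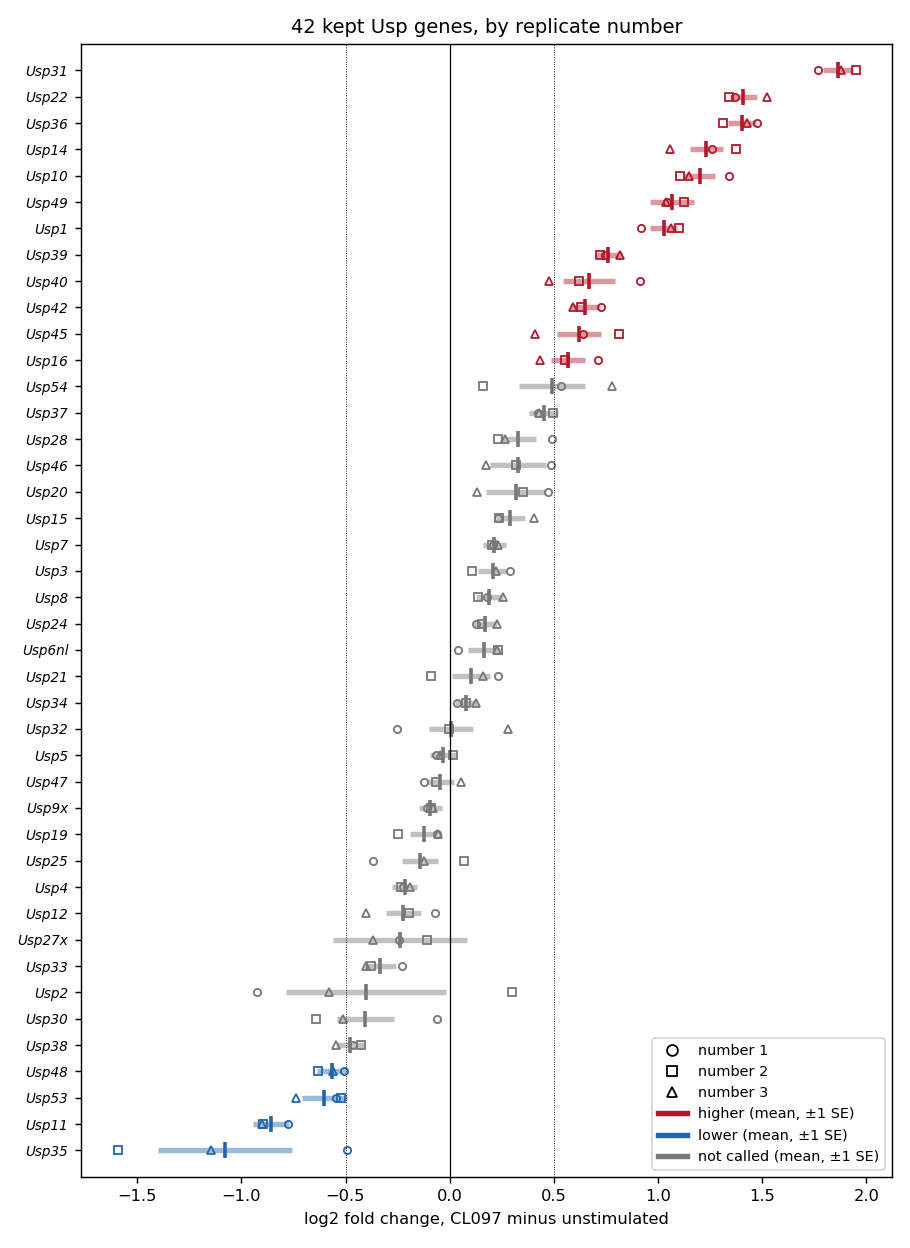
Log2 fold change (CL097 minus unstimulated) of each of the 42 tested Usp genes, ordered from the largest rise to the largest fall; open symbols are the differences within numbers 1, 2 and 3, the vertical tick is their mean and the bar is ±1 SE. Colours mark genes called higher (12), lower (4) or not called (26), and dotted lines mark the fold threshold. Usp31 leads the rises at 1.86, while Usp35, with the widest bar of the called genes, has the lowest mean at -1.08.

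Libraries of number 1 stood apart from numbers 2 and 3 in both conditions. Summed over 5 listed erythroid markers, of which 3 were tested, number 1 had 46.6 CPM in CL097 and 26.8 CPM in unstimulated cells, while numbers 2 and 3 had 1144 and 2005 CPM in CL097 and 796 and 929 CPM in unstimulated cells. Monocyte and macrophage markers summed to 54.5 to 225 CPM in CL097 and 88.6 to 428 CPM in unstimulated libraries, also lowest in number 1. All 8 B cell markers were tested and summed to 2765 to 3387 CPM in CL097 libraries and 6260 to 7177 CPM in unstimulated libraries. Within that list Cd79a, Cd79b, Cd22, Cr2 and Ms4a1 had lower means in CL097, whereas Fcer2a had 368, 503 and 440 CPM in CL097 libraries, against 290.2, 393 and 354 CPM in unstimulated libraries, and Pax5 had 167, 186 and 169 CPM against 162, 174 and 144 CPM. Plasma cell markers summed to 147 to 163 CPM in CL097 and 362 to 390.2 CPM in unstimulated libraries, and dendritic cell markers to 137 to 140.3 CPM in CL097 and 83.7 to 113 CPM in unstimulated libraries. Members of these lists did not move as one. Zbtb46 had 58.3, 43.1 and 41.6 CPM in CL097 libraries, against 10.1, 7.81 and 6.73 CPM in unstimulated libraries. Itgax went the other way (1.8, 2.0 and 4.1 against 4.3, 4.3 and 5.1 CPM), and Bst2 overlapped between conditions. Prdm1, a plasma cell marker, also overlapped (13.5, 19.9 and 22.1 against 13.2, 16.5 and 22.2 CPM). The 7 listed T cell markers summed to 3.63 to 5.46 CPM in CL097 and 4.11 to 4.61 CPM in unstimulated libraries. Cd3e, Cd3d and Cd3g stood at 0.589 CPM or less in all libraries. Cd8a had 1.17 to 2.19 CPM in CL097 and 0.038 to 0.455 CPM in unstimulated libraries. Cd5 went the other way, with 0.393 to 0.771 CPM in CL097 and 1.223 to 2.196 CPM in unstimulated libraries. So did Cd3e, with 0.095 to 0.131 CPM in CL097 and 0.416 to 0.491 CPM in unstimulated libraries. Cd3g, Cd4 and Thy1 overlapped between conditions, and Cd3d had 0.164 CPM in number 3 of both. The part of these differences in the USP results was not tested beyond leaving number 1 out. Without it 11 members were called higher, each also called with number 1 included, and 5 were called lower, 4 of which were also called with it.

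Usp31 rose most. Its product is a little-studied protease that has been linked to NF-kB signalling in human cells. Usp31 lies on chromosome 7 (121642021 to 121707253, minus strand), with 18 distinct exon intervals over all its transcripts in GENCODE M21. It had 193, 199 and 197 CPM in CL097 libraries 1 to 3, against 56.8, 51.4 and 53.5 CPM in unstimulated libraries. Libraries of a condition were close to each other and the conditions did not overlap. The rise was 3.64-fold (log2 1.86, SE 0.07, limma adjusted p = 1.66e-06), and 3.53% of all tested genes had a larger log2 fold change.

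The bases before its start site are shown because they hold an E-box, of the kind that MYC-MAX binds, and a match to a loose AP-1 pattern. In the RefSeq promoter table (build GRCm38.p6), the 250 bases before the start of Usp31 lie at chr7:121707443-121707692 on the minus strand. Capitals mark the pattern match (TGANTCA) at positions -112 to -106 and an E-box (CACGTG) at positions -22 to -17, counted from the start site. The pattern allows any middle base, and the match here is TGAATCA.
Usp31: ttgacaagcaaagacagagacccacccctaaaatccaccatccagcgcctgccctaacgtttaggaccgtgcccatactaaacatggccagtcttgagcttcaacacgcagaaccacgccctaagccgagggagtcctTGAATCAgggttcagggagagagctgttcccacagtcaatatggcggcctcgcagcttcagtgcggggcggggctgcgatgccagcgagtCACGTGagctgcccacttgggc
The start sites are those of RefSeq and can differ from the gene ends in GENCODE. Promoters of 300 bases, 250 before and 50 after the start, were given for 33 of the 42 members. On either strand CACGTG was present in 5 of the 33 and in 7.15% of all 32851 promoters, and TGANTCA in 3 of the 33 and in 7.81% of all. The other matches to TGANTCA were TGACTCA in Usp38 (log2 fold change -0.48, not called) and TGAGTCA in Usp10 (1.20, called higher). The NF-kB consensus was present in 0 of the 33, against 5.8% of all. Promoters of the members held more G and C than all promoters, with a median of 65.6% against 52.4% over the 250 bases. A match is a run of letters, and binding was not measured.

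The other 4 promoters with an E-box belong to genes that did not share a response. The windows show the E-box in capitals with 10 bases on each side, 5′ to 3′ on the strand of the gene, and lie at chr16:87454898-87454923 (Usp16), chr2:6322602-6322627 (Usp6nl), chr11:85139943-85139968 (Usp32) and chr9:108347814-108347839 (Usp4).
Usp16: ctgcagtgaaCACGTGgcgggcctcc
Usp6nl: gggaacagcgCACGTGccgccgggaa
Usp32: gggagcgggtCACGTGactcggcatg
Usp4: cgggcgcgcgCACGTGcgtggttacg
With Usp31 called higher at 1.86 and Usp16 at 0.57, the log2 fold changes of the 3 uncalled genes were 0.17 for Usp6nl, 0.01 for Usp32 and -0.22 for Usp4.

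Of 6 members tied to the nucleolus, the ribosome and the spliceosome, 4 were called higher, none was called lower and Usp4 and Usp15 were not called, with a median log2 fold change of 0.67. Among all genes tested 25.9% were called higher. Usp36, which encodes a nucleolar enzyme needed for ribosome production and a stabiliser of MYC in human cells, had 178, 173 and 163 CPM in CL097 libraries, against 64.0, 69.6 and 60.8 CPM in unstimulated libraries. It was 2.65-fold higher (log2 1.40, SE 0.07, limma adjusted p = 3.98e-06). Usp10 (chromosome 8, 119910360 to 119957560, plus strand), whose product acts on p53 and on stalled ribosomes and binds the stress granule protein G3BP1, had 162, 148 and 147 CPM against 63.8, 68.5 and 66.1 CPM, and was 2.30-fold higher (log2 1.20, SE 0.08). For both genes every CL097 library lay above every unstimulated library.

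Usp39 encodes a spliceosome protein that has the USP fold but lacks the catalytic residues. It had 139, 127 and 139 CPM in CL097 libraries, against 82.9, 77.0 and 79.0 CPM in unstimulated libraries, a log2 fold change of 0.76 (SE 0.07). Usp16 (chromosome 16, 87454703 to 87483517, plus strand), whose product removes ubiquitin from histone H2A and in human cells from the small ribosomal subunit, had 97.0, 101 and 94.4 CPM against 59.1, 68.6 and 69.8 CPM. Its log2 fold change of 0.57 (SE 0.08) was the smallest of the rises called, and without number 1 it was 0.49 and not called. Exons of Usp16 overlap those of Cct8 on the opposite strand, which averaged 711 CPM in CL097 and 354 CPM in unstimulated cells (log2 fold change 1.01). The study's methods name a stranded library kit, but the strand setting of the counting is not given in the sources used here, so whether reads of such partners were kept apart is not known.

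On histones and chromatin, 3 of 9 tested members were called higher (33.3%) and none lower, against 25.9% and 25.8% of all genes tested. Usp22 (chromosome 11, 61151785 to 61175055, minus strand) encodes the protease of the SAGA coactivator, which removes ubiquitin from histone H2B. It had 289, 280 and 290.2 CPM in CL097 libraries, against 112, 111 and 101 CPM in unstimulated libraries, and was 2.66-fold higher (log2 1.41, SE 0.07, limma adjusted p = 3.34e-06). Its relative Usp27x, which can take the place of Usp22 on the same partners, was near 1 CPM in all libraries (0.968, 1.25 and 0.709 against 1.15, 1.34 and 0.915 CPM) and was not called. Usp49 (chromosome 17, 47630690 to 47686738, plus strand), another protease for histone H2B in human cells, had 24.9, 29.2 and 26.8 CPM against 12.1, 13.4 and 13.1 CPM (log2 1.07, SE 0.11). Tomm6, on the opposite strand of Usp49 with overlapping exons, averaged 48.1 CPM in CL097 and 32.01 CPM in unstimulated cells. Usp3 and Usp7 had log2 fold changes of 0.21 (adjusted p = 0.0338) and 0.22 (adjusted p = 0.0100) in limma, short of the fold threshold.

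Of 8 tested members tied to DNA damage and p53, 4 were called higher, which includes Usp10, and 1 lower. The shares of all genes tested were 25.9% and 25.8%. Usp1 (chromosome 4, 98923810 to 98935543, plus strand), the protease that removes single ubiquitins from FANCD2 and PCNA, had 325, 306 and 315 CPM in CL097 libraries, against 172, 143 and 151 CPM in unstimulated libraries. The rise was 2.04-fold (log2 1.03, SE 0.06, limma adjusted p = 1.08e-05). Usp42, a p53 protease in human cells, had 93.6, 94.8 and 95.6 CPM against 56.6, 61.3 and 63.5 CPM (log2 0.65, SE 0.07). Usp45, whose product acts on the repair endonuclease subunit ERCC1, had 42.1, 54.3 and 47.4 CPM against 27.0, 30.9 and 35.7 CPM (log2 0.62, SE 0.10, limma adjusted p = 0.00144, or 0.0575 with no filter on low values), with Tstd3 on the opposite strand of some of its exons at 4.87 CPM in CL097 and 12.8 CPM in unstimulated cells. Usp28, which stabilises MYC and p53-pathway proteins in human cells, had a log2 fold change of 0.33 (SE 0.09), within the fold threshold.

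The member of this list that fell was Usp11 (chromosome X, 20703906 to 20720539, plus strand), a protease of the homologous recombination pathway. It had 26.5, 27.7 and 23.0 CPM in CL097 libraries, against 45.4, 51.5 and 43.0 CPM in unstimulated libraries, and was 1.81-fold lower (log2 -0.86, SE 0.09, limma adjusted p = 0.000120). All CL097 libraries lay below all unstimulated libraries. Usp2 had 0.999, 0.875 and 0.592 CPM against 1.90, 0.710 and 0.885 CPM, with differences of both signs and a 95% interval of the log2 fold change of -1.31 to 0.51.

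On the proteasome, Usp14 rose. It encodes the protease that sits on the 19S cap and trims chains from substrates. Usp14 (chromosome 18, 9993066 to 10045119, minus strand) had 219, 194 and 202 CPM in CL097 libraries, against 91.5, 74.6 and 97.3 CPM in unstimulated libraries, 2.35-fold higher (log2 1.23, SE 0.08, limma adjusted p = 1.22e-05). Thoc1, whose exons overlap on the opposite strand, averaged 74.2 CPM in CL097 and 49.4 CPM in unstimulated cells. Usp5, which recycles free ubiquitin chains, had 126, 123 and 120 CPM against 132, 122 and 124 CPM, with a log2 fold change of -0.03 and a 95% interval of -0.18 to 0.12. Usp13, the near relative of Usp5, had the constant low log2 CPM of -5.05 in every library.

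**Figure D3:**
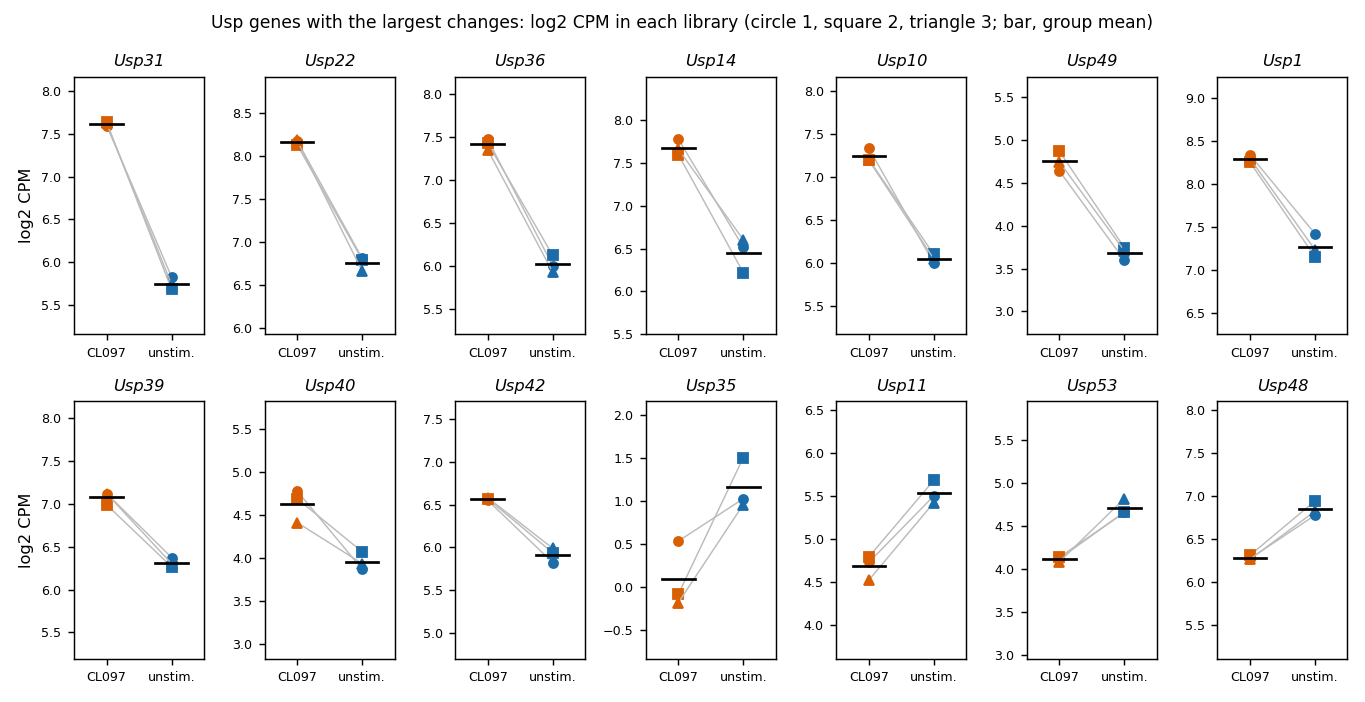
Deposited log2 CPM (vertical axes, each spanning 3 log2 units) of the 10 Usp genes with the largest called rises and the 4 with called falls, in CL097 libraries (left, orange) and unstimulated libraries (right, blue); symbols give the replicate number, lines join libraries of a number and bars are group means. In all 14 panels the conditions do not overlap, and Usp35 shows the widest scatter within a condition.

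Members tied to innate and NF-kB signalling went both ways: of 8 tested, 1 was called higher, 1 lower and 6 were not called, with a median log2 fold change of -0.18. Each direction held 12.5% of the list, against 25.9% (higher) and 25.8% (lower) of all genes tested. Usp31 was the rise described above. Usp48 (chromosome 4, 137593755 to 137658537, plus strand), a nuclear protease that acts on RelA in human cells and on histone H2A, had 77.1, 79.2 and 76.6 CPM in CL097 libraries, against 109, 123 and 113 CPM in unstimulated libraries (log2 -0.57, SE 0.07, limma adjusted p = 0.000276). Usp38 had 97.8, 90.4 and 89.1 CPM against 135, 122 and 130.3 CPM, a log2 fold change of -0.48 (SE 0.07, limma adjusted p = 0.000568) that fell just short of the fold threshold. It was called lower with cyclic loess (-0.50) and without number 2 (-0.51).

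Usp25, which acts on TRAF3 and TRAF6, was not called. Its CL097 libraries had 286, 425 and 461 CPM, against 369, 406 and 503 CPM in unstimulated libraries, so number 1 was the lowest in both conditions. The log2 fold change was -0.14 with a 95% interval of -0.34 to 0.06. Usp4 and Usp15, proteases that share a domain layout and act in TGF-beta, NF-kB and splicing pathways, had log2 fold changes of -0.22 (SE 0.06, adjusted p = 0.0148) and 0.29 (SE 0.07, adjusted p = 0.00801) in limma, both within the fold threshold. Usp21 was not called (0.10, 95% interval -0.12 to 0.32).

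None of the 5 tested members that act on endosomes and membrane receptors was called by limma. Of all genes tested 51.7% were called in either direction. Usp8 and Usp33 passed the adjusted p (0.0327 and 0.00734) and missed the fold threshold, and no other member of the list had an unadjusted p under 0.05. Usp8, the protease that spares receptors from lysosomal sorting at the ESCRT machinery, had 149, 146 and 145 CPM in CL097 libraries, against 132, 133 and 122 CPM in unstimulated libraries, a log2 fold change of 0.19 (SE 0.06). Usp33 had 51.9, 54.1 and 50.8 CPM against 60.8, 70.3 and 67.0 CPM, a log2 fold change of -0.33 (SE 0.08) within the fold threshold. Usp9x, a protease of many trafficking and cell cycle proteins, had 371, 359 and 388 CPM against 400.0, 381 and 410.4 CPM, and its 95% interval ran from -0.22 to 0.04. For Usp19, anchored in the endoplasmic reticulum, the interval was -0.28 to 0.04.

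Of 4 members at mitochondria and other organelle membranes 1 was called lower and none higher, against 25.8% and 25.9% of all genes tested. Usp35, a protease tied to the removal of damaged mitochondria, had 1.45, 0.942 and 0.880 CPM in CL097 libraries, against 2.04, 2.84 and 1.94 CPM in unstimulated libraries. It was 2.11-fold lower (log2 -1.08, SE 0.32, limma adjusted p = 0.0204), at levels near the limit for testing, and was not called by limma without number 2 (-0.82, adjusted p = 0.142) or without number 3 (-1.04, adjusted p = 0.0817), or with no filter on low values (adjusted p = 0.202). Usp30, anchored in the outer mitochondrial membrane, where it counters mitophagy, had 22.6, 17.7 and 16.9 CPM against 23.6, 27.7 and 24.2 CPM. Its differences were -0.06, -0.64 and -0.51 in numbers 1 to 3, and it was called lower without number 1 (-0.58). Alkbh2, which overlaps Usp30 on the opposite strand, averaged 6.19 CPM in CL097 and 3.66 CPM in unstimulated cells.

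Usp32, a protease of endosomal and Golgi membranes, differed more between numbers than between conditions. It had 68.3, 94.8 and 123 CPM in CL097 libraries, against 81.5, 95.01 and 101 CPM in unstimulated libraries. The within-number differences were -0.26, -0.003 and 0.28, so the mean of 0.01 (95% interval -0.24 to 0.26) joins opposite signs. Number 1 lay 0.66 below the mean of numbers 2 and 3 in CL097 and 0.27 below it in unstimulated cells on the log2 scale, and for Usp25 these values were 0.63 and 0.29. These are the numbers that also differ in the erythroid and macrophage markers given above, and a part of those cells in the 2 genes was not tested.

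The list of members set down as lacking deubiquitinase activity held Usp39, Usp53, Usp54 and Usp6nl among tested genes. Of these 1 was called higher (Usp39) and 1 lower (Usp53), against 25.9% and 25.8% of all genes tested. For Usp53 and Usp54 the assignment to this list has been questioned. Usp53, which encodes a protein of tight junctions, had 17.4, 17.6 and 17.0 CPM in CL097 libraries, against 25.4, 25.3 and 28.3 CPM in unstimulated libraries (log2 -0.60, SE 0.11, limma adjusted p = 0.00194). Usp54 had 13.8, 13.4 and 13.6 CPM against 9.51, 12.0 and 7.94 CPM, a log2 fold change of 0.49 (limma adjusted p = 0.0280) just within the fold threshold. It was called higher without number 2 (0.66).

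Among members with MYC and cell cycle roles 2 of 6 were called higher (33.3%), Usp36 and Usp22, and none lower. The shares of all genes tested were 25.9% and 25.8%. Usp37, a protease of cyclin A and MYC in human cells, had 95.3, 98.8 and 105 CPM in CL097 libraries, against 71.0, 70.0 and 77.9 CPM in unstimulated libraries, with a log2 fold change of 0.45 (SE 0.07) and no overlap. Usp40, in none of the lists, had 27.5, 25.8 and 21.3 CPM against 14.6, 16.8 and 15.3 CPM (log2 0.67, SE 0.12, limma adjusted p = 0.00239, or 0.0590 with no filter on low values). Its exons overlap those of Dgkd on the opposite strand, which averaged 300 CPM in CL097 and 848 CPM in unstimulated cells and moved the other way. The large proteases Usp34, Usp24 and Usp47 had log2 fold changes of 0.08, 0.17 and -0.05 and were not called.

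Related genes were compared in 14 pairs, chosen for likeness in sequence and with both genes tested. In 12 of the 14 pairs the difference between the log2 fold changes had 1 sign in all 3 numbers, and in 9 of 14 the genes had log2 fold changes of opposite sign. Neither count was made for pairs of unrelated genes, so they are not read as a trait of related genes. With 3 numbers the exact two-sided sign-flip permutation test cannot go below 0.25 (0.292 adjusted over the pairs), so no pair could pass a threshold of 0.05. In 2 pairs both genes were called, both times higher in each gene. No pair held genes called in opposite directions.

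Usp12 and Usp46, near-identical proteases that both work with WDR48, had log2 fold changes of opposite sign, with a similar gap in each number. Usp12 had 94.2, 91.0 and 90.3 CPM in CL097 libraries, against 98.8, 104 and 120 CPM in unstimulated libraries, and Usp46 had 13.1, 11.7 and 13.5 CPM against 9.35, 9.40 and 12.0 CPM. The difference of their log2 fold changes, Usp12 minus Usp46, was -0.55 ± 0.03 (SD over 3 numbers), from -0.22 for Usp12 and 0.33 for Usp46. Usp46 overlapped between conditions and did not pass the adjusted p (0.0661 in limma). Because the pair is alike in sequence, reads shared between the genes depend on how they were counted.

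The beta-adrenergic receptor proteases Usp20 and Usp33 also differed in sign, with a gap of 0.65 ± 0.11 (SD over 3 numbers), with Usp20 at 0.32 and Usp33 at -0.33. Usp53 minus Usp54 gave -1.09 ± 0.42, Usp22 minus Usp27x 1.65 ± 0.23 and Usp36 minus Usp42 0.75 ± 0.08, each with 1 sign in 3 of 3 numbers. Usp4 minus Usp15 gave -0.51 ± 0.08 and Usp4 minus Usp11 gave 0.64 ± 0.08. Usp16 and Usp45 showed no such gap, with a difference of -0.05 ± 0.18 and both signs among the numbers (exact permutation p = 1.0).

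**Figure D4:**
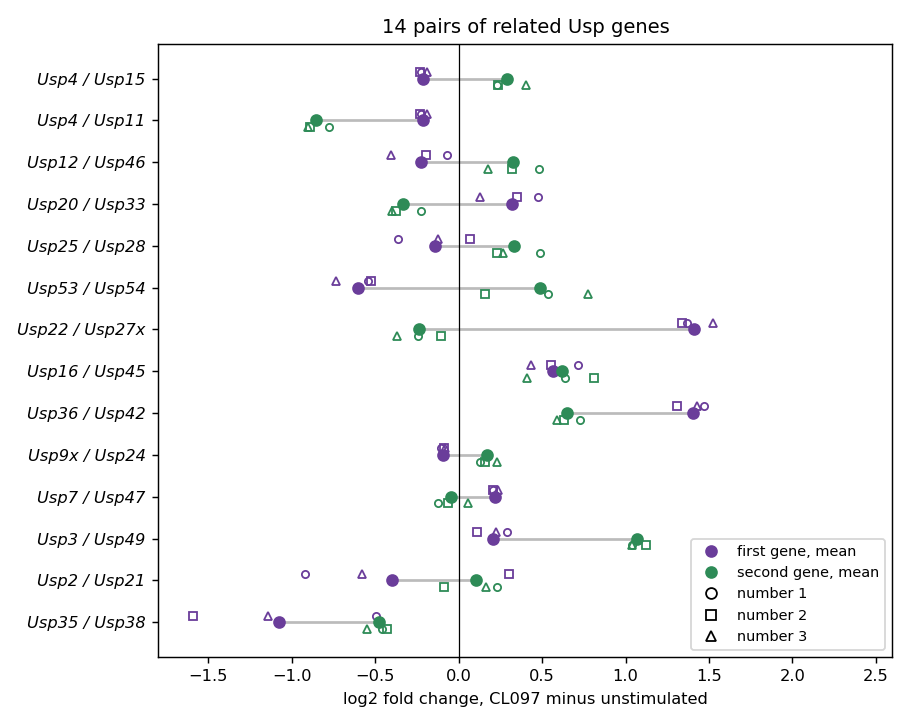
Log2 fold change (CL097 minus unstimulated) of the 2 genes in each of 14 related pairs, the first-named gene in purple and the second in green; filled circles are means over 3 numbers and open symbols the differences within numbers. The purple and green symbols are separated in most pairs, by 1.65 for Usp22 and Usp27x, and lie together for Usp16 and Usp45.

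Partners of USPs were read next, from lists that name cofactors and other deubiquitinases. On the proteasome all 3 associated deubiquitinases were called higher: beside Usp14, Uchl5 averaged 94.3 CPM in CL097 and 46.0 CPM in unstimulated cells (log2 1.04, SE 0.07) and Psmd14, the metalloprotease of the 19S cap, averaged 191 CPM and 125 CPM (log2 0.61, SE 0.06). The share called higher among all genes tested was 25.9%. The partners of Usp22 in the SAGA module did not move as one. Atxn7l3 and Eny2, which Usp22 needs for activity, had log2 fold changes of 0.45 (SE 0.06) and 0.49 (SE 0.10), within the fold threshold, while Atxn7, which anchors the module, had 24.6, 29.6 and 23.2 CPM in CL097 libraries, against 49.3, 58.8 and 56.1 CPM in unstimulated libraries (log2 -1.09, SE 0.10). Its relative Atxn7l1 was lower by the same measure (-1.08, SE 0.17) and Atxn7l2 was higher (0.67, SE 0.15).

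Wdr48 encodes UAF1, the cofactor that activates USP1, USP12 and USP46. It had 134, 138 and 130.3 CPM in CL097 libraries, against 91.1, 90.6 and 92.2 CPM in unstimulated libraries (log2 0.55, SE 0.07), where Usp1 rose and Usp12 and Usp46 were not called. G3bp1, the partner of Usp10, had 757, 678 and 657 CPM against 325, 295 and 319 CPM (log2 1.15, SE 0.06). Sart3, which carries USP4 and USP15 to the spliceosome, had a log2 fold change of 0.24 (SE 0.06), within the fold threshold. Of 9 tested cofactors 3 were called higher (33.3%) and 2 lower (22.2%), with a median of 0.45. These shares were near the 25.9% and 25.8% of all genes tested.

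**Figure D5:**
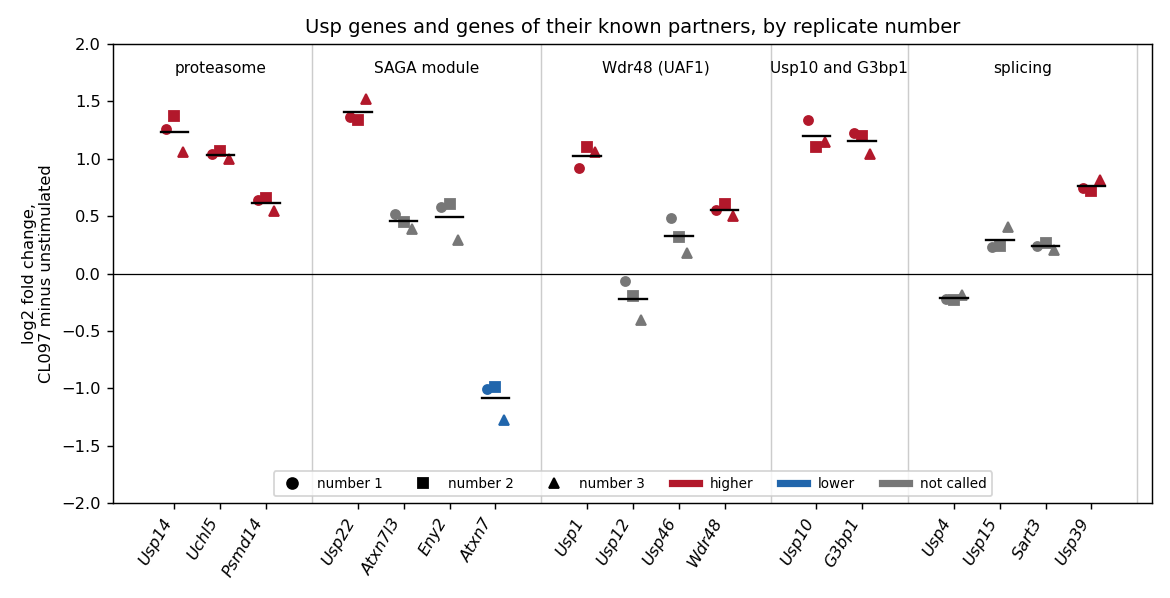
Log2 fold change (CL097 minus unstimulated) within numbers 1, 2 and 3 for Usp genes and genes of their known partners, in 5 groups; black bars are means and colours mark genes called higher, lower or not called. The 3 proteasome genes and the pair of Usp10 and G3bp1 lie above 0.5 throughout, whereas Atxn7 lies near -1.09 beside Usp22 at 1.41.

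Other deubiquitinases, outside the Usp symbols, moved in both directions. Of 34 tested genes 11 were called higher (32.4%), 8 lower (23.5%) and 15 were not called, shares near the 25.9% and 25.8% of all genes tested, with a median log2 fold change of 0.15. The list takes in Uspl1, Cops5 and Alg13, known mainly for activities other than removing ubiquitin. All of these were called higher (log2 0.528, 0.591 and 0.565). Tnfaip3, the gene of A20, rose most in this list by log2 1.69 (SE 0.06), followed by Josd2 (1.24, SE 0.19). The falls reached further than those of the Usp genes: Fam63a, a protease for long K48 chains, averaged 8.79 CPM in CL097 and 33.7 CPM in unstimulated cells (log2 -1.96, SE 0.17), Otud1 had a log2 fold change of -1.90 (SE 0.13) and Fam63b one of -1.83 (SE 0.21). Cyld, which belongs to the USP fold family though not by its symbol, had 80.4, 80.4 and 80.7 CPM in CL097 libraries, against 243, 210.4 and 223 CPM in unstimulated libraries (log2 -1.48, SE 0.07), a larger fall than that of any Usp gene tested. Uba6, which encodes an enzyme that activates ubiquitin, averaged 91.6 CPM in CL097 and 67.6 CPM in unstimulated cells, a log2 fold change of 0.44 (SE 0.09, limma adjusted p = 0.00461) within the fold threshold.

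Levels can be set side by side only per length of transcript. Divided by the summed length of the annotated exons in kilobases, Usp1 stood highest in CL097 cells at 84.5 CPM per kb, followed by Usp25 (75.2), Usp7 (63.8), Usp22 (58.6) and Usp39 (55.2). In unstimulated cells Usp25 stood highest at 81.9 CPM per kb, followed by Usp7 (54.9), Usp1 (41.5), Usp39 (32.6) and Usp8 (30.7), with Usp22 at 22.1. The lowest tested members were Usp2, Usp35 and Usp27x, under 0.5 CPM per kb in both conditions. The annotation behind the deposited values is not given in the sources used here, so these lengths, from GENCODE M21, are approximate. They join the exons of all annotated transcripts of a gene and can exceed the length of any 1 transcript. Usp14 had 8.345 kb over 34 distinct exon intervals and Usp1 3.733 kb over 15, so the order depends on this choice of length. Intervals are pooled over transcripts, and variants of an exon that differ in an end count separately.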

How the data were processed

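Poly(A) RNA (stranded TruSeq kit) of 3 CL097 and 3 unstimulated libraries was sequenced by the authors, who per the labels and methods trimmed reads (Trim Galore 0.6.5, checked with FastQC 0.11.7), aligned them to mm10 (STAR 2.6.1a) and counted them per gene (featureCounts, Subread 2.0.1). For the annotation and the strand setting the sources used here give nothing. The deposited tables hold log2 CPM values that the authors made with voom and quantile normalisation, 1 file per library. The summed CPM was 991009 to 999204 per library. Counts and read depth could not be recovered, so no count test was run.

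Genes with a log2 CPM of -1 or more in at least 3 libraries were fitted with limma 3.58.1 in R 4.3.3 (trend on mean level, replicate number as a block), and p-values were adjusted over all 11844 genes. The thresholds on the adjusted p (0.05) and on the size of the log2 fold change (0.5) were those of the study. No label ties a number to 1 mouse. After subtraction of the group means, libraries correlated at 0.568, 0.326 and 0.458 within numbers 1, 2 and 3, and at 0.209 at most between numbers, so the numbers were taken as pairs. P-values of this fit measure the spread of the within-number differences between conditions in these libraries, moderated toward the trend of all genes.

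CPM values printed are 2 to the power of the deposited log2 values, SDs are over 3 libraries or numbers, and fold changes are on the scale of the fit. Per-library values are given for up to 10 called members with the largest change in each direction whose conditions do not overlap, and for members of the related pairs; those of Usp8, Usp30, Usp37, Atxn7, Wdr48, G3bp1 and Cyld were added after their values were seen. The members, lists, pairs and motifs were chosen with earlier results of these data known. Gene positions and exon lengths came from GENCODE M21, for all 42 members, and promoters from RefSeq (GRCm38.p6). Other filters, scalings, fits and thresholds, and leaving out each number, were tried as alternatives. Results for some genes are not reported here.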

Additional observations from a re-analysis of the deposited data

How the results depend on the processing

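Without the replicate block 12 USP genes were called higher and 4 lower, all of them among those called with it, and the block changed no other USP call; over all genes 2837 were higher and 2799 lower without it. With the fold threshold at 0, 20 USP genes were higher and 9 lower, and at 1, 7 were higher and 1 lower; at 1, 3 other deubiquitinases were higher and 5 lower, and 1647 and 1727 of all genes. With no filter on low values, which adds genes with 1 constant value, the median of the USP genes was 0.0, 7 other deubiquitinases were higher, and Usp40 (limma adjusted p = 0.059), Usp45 (0.0575) and Usp35 (0.202) were not called. Of 17 other genes named, Atxn7l1 (0.0904), Atxn7l2 (0.142), Josd2 (0.0772) and Fam63b (0.0659) also lost their call there, and Eny2 (0.59) and Uba6 (0.55) were called without number 3. Leaving out 1 number at a time, both libraries together since the block drops the partner, gave 11 to 13 USP genes higher, 3 to 5 lower and a median of 0.15 to 0.21. Usp32 changed sign with cyclic loess (-0.017) and ran from -0.129 to 0.139 with 1 number left out, and Usp16 minus Usp45 ran from -0.117 to 0.05, an alternative chosen after seeing the data; the cause was not tested. Of 16 called members 12 were called in every alternative at the fold threshold of 0.5. With 3 libraries per condition and unknown depth, members near 1 CPM (Usp2, Usp27x, Usp35) had SEs of 0.39, 0.32 and 0.32.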
